A study of Mus musculus with 13 samples.

Results

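The comparison is between brown adipose tissue of mice lacking Stim1 and Stim2 in adipocytes and tissue of floxed controls, both kept at room temperature (RT) with no cold exposure. Its members are the 5 RT libraries of 13 in the series, chosen by their sample titles: 2 labelled Stim1/2_fl/fl at room temperature (control RT 1 and 2) and 3 labelled Stim1/2_Adp-Cre at room temperature (KO RT 1, 2 and 3). Controls carry the floxed alleles of both genes without Cre, per the genotype label, although the series text also calls them wild type. In the knockouts Cre is driven by the adiponectin promoter, which is active in adipocytes of every depot, white fat included, so that vascular, immune and nerve cells of the tissue keep both genes. The other 8 libraries come from the same genotypes after 6 h at 4 °C and are used here for the shared estimate of spread and for comparison. Neither the age of the mice nor whether each library is 1 animal is given in the sources used here, so p-values measure the spread between these libraries, which may be partly technical.

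Brown adipocytes burn fuel in mitochondria to make heat through uncoupling protein 1 (UCP1). STIM1 and STIM2 are membrane proteins of the endoplasmic reticulum (ER) that sense the fall of calcium in its lumen, move to contacts with the plasma membrane and open Orai channels there, which lets calcium in and refills the store. The study asked, by its title, what this calcium entry does for heat production. The RT comparison shows the tissue of both genotypes before an acute cold challenge, although room temperature is itself below the temperature at which a mouse needs no extra heat.

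No gene passed the threshold set over all genes in the RT comparison. Among the genes with the smallest p, Sdhb and Bcat2 were higher in every KO library than in either control, and Stim1, Lgr6 and Rnf152 were lower. Having groups apart was part of how genes were picked, and 16.6% of all 11073 genes had it. Of 31 pathway lists, interferon-stimulated genes had the lowest median. ER chaperones had a median log2 difference of 0.08 at RT. After cold 14 of 36 passed as higher in KO tissue, against 2.55% of all genes.

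The 5 libraries held 1585351 to 2016178 counts and detected 16260 to 17061 genes, and mitochondrial genes took 9.43% to 11.1% of the counts. All 15 brown adipocyte markers were detected, with a summed level of 18292 to 21005 CPM (counts scaled to the size of each library). The controls were the least alike of the RT pairs: their log2 CPM correlated at 0.938 across genes, and 847 genes were more than 2-fold apart, against 351 to 544 genes between pairs of KO libraries. Control RT 1 correlated best with KO RT 1 (0.974) and control RT 2 best with KO RT 3 (0.964). Skeletal muscle markers, summed over 28 genes, stood at 3987 CPM in control RT 1, 2466 in KO RT 1 and 1737 in KO RT 2, but at 137 in control RT 2 and 244 in KO RT 3. That division follows the number in the library names, which is 175, 176 and 178 for the first 3 libraries and 153 and 152 for the others. The labels do not say what the number stands for, and all libraries carry the same batch label. Each set holds a control, so KO minus control can be read within each set, with no library in common.

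Stim1 was lower in every KO library than in either control. Its level was 149.9 and 126 CPM in the controls and 74.0, 62.0 and 86.1 CPM in the KO libraries. The difference was -0.90 ± 0.17 on the log2 scale (± standard error), with a 95% interval of -1.25 to -0.54. Its unadjusted p of 5.71e-05 became 0.316 after Benjamini-Hochberg adjustment over 11073 genes in edgeR's quasi-likelihood test, so Stim1 did not pass the threshold of 0.05. In DESeq2 (adjusted p = 0.0122) and without a filter on low counts (0.0318) it did, and over the other alternatives the adjusted p ran up to 0.981. Stim2 stood at 29.0 and 40.4 CPM in the controls and 22.3, 25.2 and 21.0 CPM in the KO libraries. Its groups did not overlap either, but its difference of -0.59 ± 0.30 had an interval of -1.23 to 0.05, which includes 0. After cold the difference was -0.45 ± 0.13 for Stim1 (adjusted p = 0.0547) and -0.88 ± 0.24 for Stim2 (adjusted p = 0.0371). The kit reads a tag near the 3′ end of each transcript, and the deleted part of either gene is not given in the sources used here, so remaining tags say nothing of how much protein was made. In bulk tissue, fewer cells of a type and less RNA per cell cannot be told apart.

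Ucp1 was at 3187 and 3856 CPM in the controls and 2436, 3601 and 3513 CPM in the KO libraries, and the groups overlapped. KO RT 1 was the lowest and control RT 2 the highest. The difference was -0.15 ± 0.16, with a 95% interval of -0.47 to 0.18, and it was 0.00 without control RT 2 and 0.01 without KO RT 1. After cold the level was 8741 ± 839 CPM (mean ± SD, n = 4) in control and 6641 ± 350.2 CPM in KO tissue, a difference of -0.40 ± 0.12 (adjusted p = 0.0617).

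**Figure D1:**
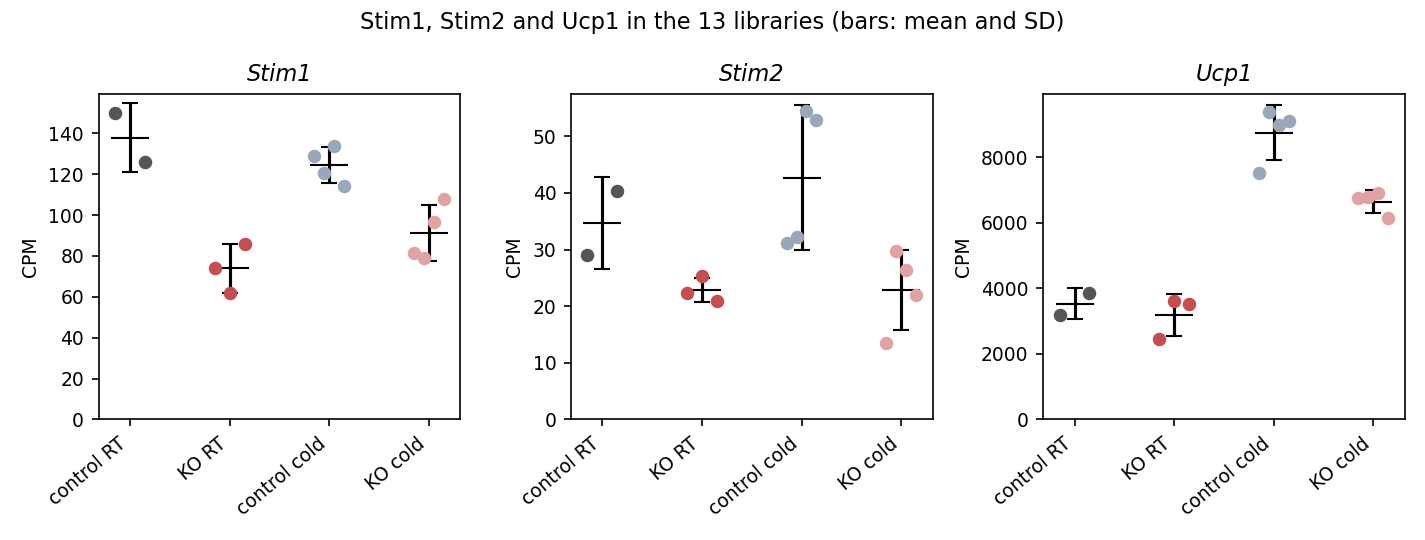
CPM of Stim1, Stim2 and Ucp1 in each of the 13 libraries by group; points are libraries and bars are the mean with SD. The 3 KO RT libraries lie below both control RT libraries for Stim1 and Stim2 and overlap them for Ucp1.

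At RT no gene passed the adjusted threshold: edgeR called 0 of 11073 genes (percent called 0%), and its smallest adjusted p was 0.316. An unadjusted p under 0.05 was reached by 377 genes (3.40%), of which 172 (1.55%) were higher and 205 (1.85%) lower in KO tissue. With no difference at all, a threshold of 0.05 would be reached by 553.65 of 11073 genes on average. Limma-voom also called 0 genes. With the library number, described above, as a term of the edgeR fit, 1 gene passed, Sdhb (adjusted p = 0.0462). DESeq2 called 3, Sdhb, Stim1 and Lgr6. Without a filter on low counts edgeR called 10, namely Gmpr, Sdhb, Bcl6, Gk, Scd2, Cyp2e1, Fosl2, Stim1, Elovl3 and Lgr6. Leaving out control RT 1 gave 8 calls, all lower in KO than in the lone remaining control: Rarres2, Gk, Ptprc, Fabp3, Fosl2, Baz1a, Ccl5 and Ms4a4b. Ptprc, Ccl5 and Ms4a4b are expressed by leukocytes. Lymphocyte markers, a list that itself holds Ccl5, summed to 121 CPM in control RT 2. They summed to 25 CPM in control RT 1 and 33 to 42 CPM in KO libraries. The part of leukocytes in these calls was not tested.

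The standard error of the log2 fold change had a median of 0.257 at RT, against 0.209 in the cold comparison of 4 with 4 libraries. Fold changes of 2 or more in either direction (1 or more on the log2 scale) were fitted for 177 genes, 80 higher and 97 lower, and in cold for 475. In cold, 684 genes passed (6.18%). Every KO library was above every control library for 961 genes (8.68%) and below for 881 (7.96%), and these shares are the background against which the lists below are set.

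KO minus control was also read within each of the 2 sets of library numbers. Across 11073 genes the difference in log2 CPM had the same sign in both sets for 44.9% of genes, and the values correlated at -0.127. Among the 3652 genes with a mean of at least 50 CPM the share was 40.9% and the correlation -0.224. The sets share neither a control nor a KO library, and the points are genes of the same tissue, not replicates. The second set, of 1 library a genotype, spread more (SD 0.498) than the first (SD 0.381). Stim1 was lower in KO tissue in both, at -1.13 and -0.54, and so was Stim2, at -0.28 and -0.91. For genes whose groups did not overlap, as for these, the same sign in both sets is fixed in advance.

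**Figure D2:**
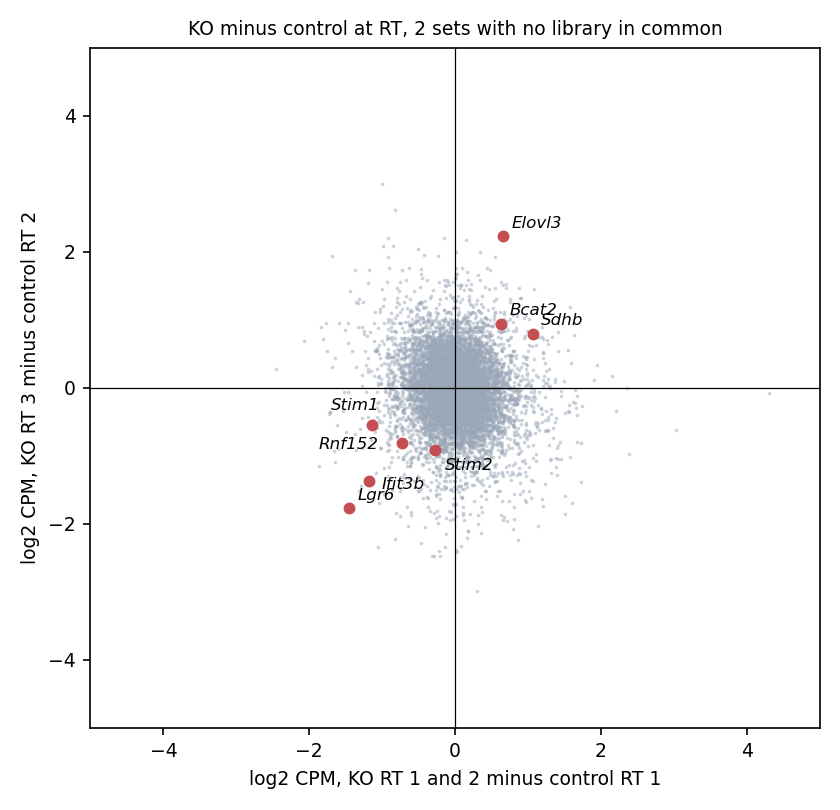
KO minus control in log2 CPM for 11073 genes, in libraries 175, 176 and 178 (x axis) and in libraries 153 and 152 (y axis). The cloud has no upward slope (correlation -0.127). The 8 genes labelled in red, which include Stim1, Sdhb and Lgr6, had groups that did not overlap, which fixes the same sign in both sets in advance.

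The genes named next are the 12 higher and 12 lower in KO tissue with the smallest unadjusted p, a mean of at least 5 CPM and groups that did not overlap. None of the 24 passed, and having groups apart was part of how they were picked. Among the higher genes Sdhb came first. It codes for the iron-sulfur subunit of succinate dehydrogenase, shared by the TCA cycle and the respiratory chain. Its level was 426 and 603 CPM in the controls and 887, 899 and 1049 CPM in the KO libraries, a difference of 0.88 ± 0.16 (adjusted p = 0.316 in edgeR, and 0.95 with an adjusted p of 0.0462 with the library number as a term). Both RT controls were below every other library of the series. After cold the means were 978 ± 108 CPM (SD, n = 4) in control and 1012 ± 88.4 CPM in KO tissue. Of the other succinate dehydrogenase subunits, Sdha stood at 0.03, Sdhc at -0.05 and Sdhd at 0.08.

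Bcat2, the mitochondrial transaminase that starts the breakdown of branched-chain amino acids, was at 59.3 and 44.0 CPM in the controls and 96.2, 89.5 and 85.6 CPM in the KO libraries (0.80 ± 0.18). Of the 12, Bcat2, Eif4a2 and Zfp395 also passed in cold. Of all genes 6.18% did. Among the 377 genes at an unadjusted p under 0.05 in edgeR at RT, 14.6% passed in cold with the same sign. For Bcat2 the difference there was 1.07 ± 0.14 (adjusted p = 0.000269). Eif4a2, an RNA helicase of translation initiation, read 227 and 245 CPM in the controls and 354, 347 and 360.1 CPM in the KO libraries (0.59 ± 0.13), against 0.36 ± 0.10 in cold (adjusted p = 0.0409). Cdc25a, a phosphatase that activates cyclin-dependent kinases, had 29.9 and 24.1 CPM against 51.7, 66.0 and 50.4 CPM (1.04 ± 0.24). In these 3 genes the KO libraries lay close together.

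Elovl3, an elongase of very long fatty acids that brown fat induces in the cold, was more scattered. It stood at 42.3 and 28.9 CPM in the controls and 55.2, 82.6 and 139.6 CPM in the KO libraries, with KO RT 3 the highest, and the difference was 1.36 ± 0.33. Bcl6, a transcriptional repressor, read 73.1 and 63.9 CPM in the controls and 78.5, 207 and 135 CPM in the KO libraries (1.03 ± 0.27). KO RT 2 was the highest and KO RT 1 little above the controls, and without KO RT 2 the difference was 0.63. Srpk2, a kinase of splicing factors, had 55.6 and 57.9 CPM in the controls and 75.0, 121 and 76.6 CPM in the KO libraries (0.68 ± 0.19), again with KO RT 2 the highest and 0.41 without it.

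The others were expressed at low levels. Anxa8, an annexin that binds phospholipids in the presence of calcium, had 5.06 and 4.22 CPM in the controls and 14.2, 12.1 and 7.87 CPM in the KO libraries (1.27 ± 0.34). Dlgap1, a scaffold protein, differed by 1.24 ± 0.35, and Nfya, a subunit of the transcription factor NF-Y, by 1.07 ± 0.32. The zinc finger gene Zfp395 differed by 1.03 ± 0.31. Sox18, a transcription factor of endothelial cells, had 21.2 and 12.1 CPM in the controls and 32.9, 35.6 and 27.3 CPM in the KO libraries (0.91 ± 0.27), while the median of the 23 endothelial markers was -0.05.

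Among the lower genes, Lgr6 differed most. It codes for a receptor of R-spondins, which amplify Wnt signals. Its level was 53.3 and 85.0 CPM in the controls and 21.3, 16.6 and 24.1 CPM in the KO libraries, a difference of -1.72 ± 0.36 (adjusted p = 0.534 in edgeR). The KO libraries lay close together, below both controls, and the difference was -1.45 and -1.77 in the 2 sets. In cold Lgr6 passed, at -2.54 ± 0.28 (adjusted p = 4.29e-05). Rnf152, a ubiquitin ligase of lysosomes, had closely grouped values: 435 and 437 CPM in the controls and 256, 267 and 249 CPM in the KO libraries (-0.76 ± 0.17). It passed in cold too, at -1.06 ± 0.14 (adjusted p = 0.000259).

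Lgals3bp, a secreted glycoprotein that binds galectins, was at 37.2 and 40.4 CPM in the controls and 21.8, 23.0 and 18.9 CPM in the KO libraries (-0.87 ± 0.21). In cold its difference was 0.10 ± 0.19 (adjusted p = 0.82). Cav1, which forms the caveolae of the adipocyte surface, read 424 and 556 CPM in the controls and 367, 339 and 288 CPM in the KO libraries (-0.56 ± 0.14), and in cold it passed at -1.18 ± 0.11 (adjusted p = 1.06e-05). Fhl1, a LIM-domain protein abundant in muscle, had 86.0 and 76.5 CPM against 47.6, 45.9 and 26.2 CPM (-1.03 ± 0.30), and passed in cold at -1.54 ± 0.26. Muscle marker sums, given above, were high in control RT 1 and low in control RT 2. A fit with the muscle marker level as a term was among 28 other settings, over which the Fhl1 difference ran from -1.54 to -0.80. The lowest value came from libraries 153 and 152 alone, so the range does not show what the muscle term did. The part of muscle in the Fhl1 values was not tested otherwise. Slc29a1, a nucleoside transporter, had 45.1 and 30.1 CPM against 14.2, 15.5 and 23.6 CPM (-1.09 ± 0.31).

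In several genes 1 control carried the difference. The AP-1 factor Fosl2 was at 40.9 and 109 CPM in the controls and 18.2, 35.6 and 31.5 CPM in the KO libraries (-1.38 ± 0.34), and without control RT 2 the difference was -0.53. Fabp3, which carries fatty acids in the cytosol, read 399 and 736 CPM in the controls and 249.7, 386 and 375 CPM in the KO libraries, a difference of -0.75 ± 0.21 that became -0.24 without control RT 2. The same omission brought Ankrd9, which passed in cold at -1.89 ± 0.19, from -0.88 ± 0.25 to -0.32, the amino acid transporter Slc43a2 from -0.71 ± 0.20 to -0.31 and Cav1 to -0.35. Scd2, a fatty acid desaturase, went the other way: its level was 96.1 and 40.4 CPM in the controls and 35.5, 31.6 and 25.2 CPM in the KO libraries (-1.17 ± 0.31), and without control RT 1 the difference was -0.40.

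**Figure D3:**
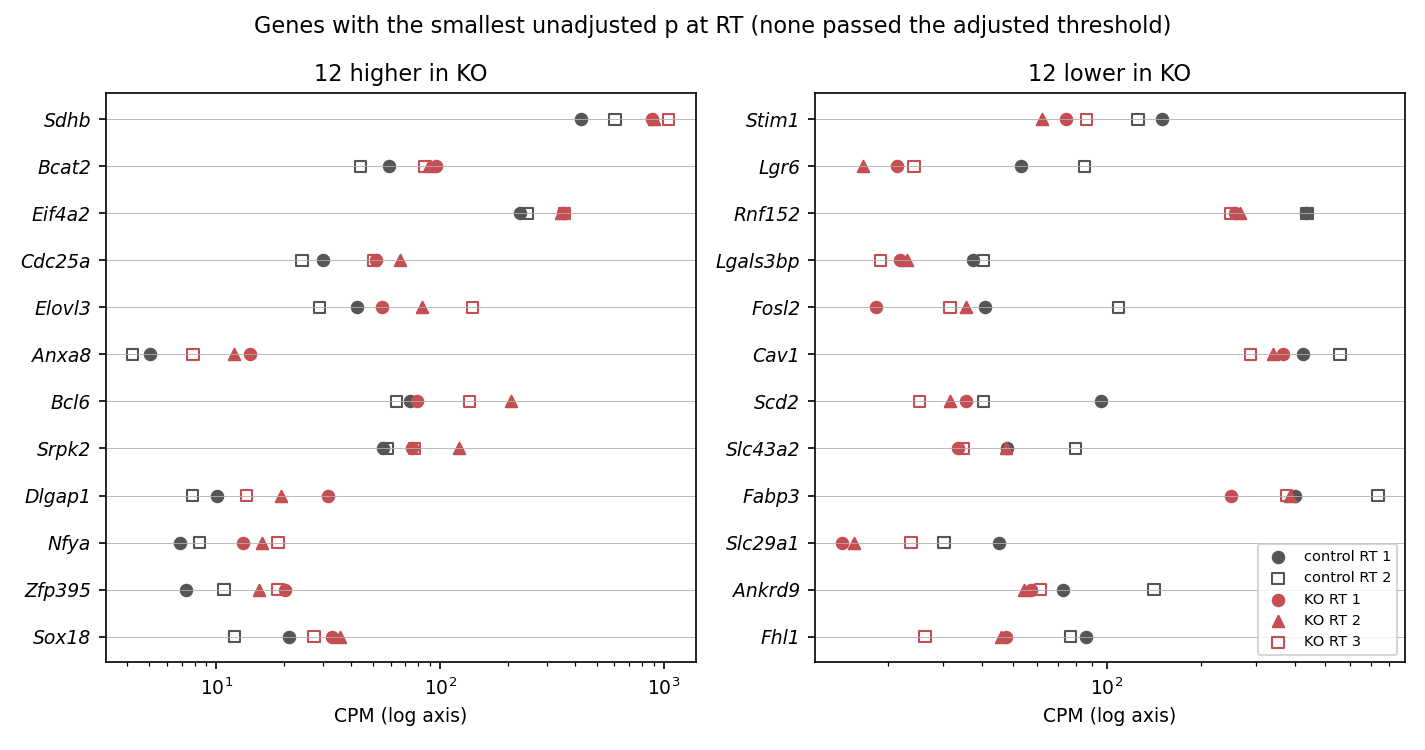
CPM on a log axis of the 12 higher and 12 lower genes with the smallest unadjusted p, in each RT library; grey marks controls, red marks KO, and open squares mark libraries 153 and 152. In Rnf152 and Eif4a2 the libraries of a genotype nearly coincide, while in Fosl2, Fabp3 and Ankrd9 control RT 2 stands apart.

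Gene lists were then read by their members, 45 lists in all, and none had a member that passed. Not every list is described below. For most of those described, the median difference is given, often with the count of positive or negative differences. Of all genes tested, 50.0% were positive and 50.0% negative, with a median of 0. The filter on low counts spanned all 13 libraries, so some tested members had few or no counts at RT. The signs of such members at RT carry little information. The sign of the median turned in 9 of 31 pathway lists without control RT 1 and in 14 without control RT 2, in 22 lists by 1 or the other. Their medians were at most 0.299 from 0.

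In the store-operated entry list, the pathway that the deletion targets, 7 of 10 tested members were negative (median -0.10). Only Stim1 and Stim2 had groups that did not overlap. Orai3, a channel subunit, stood at 28.5 and 36.8 CPM in the controls and 24.8, 27.0 and 32.5 CPM in the KO libraries (-0.20 ± 0.20), so that the groups overlapped. In cold it passed in the other direction, at 0.58 ± 0.16 (adjusted p = 0.0381). The channel gene Orai1 differed by -0.08 and Saraf, which turns store-operated entry off, by -0.03.

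Genes of ER and plasma membrane contacts lay around 0, with 14 of 23 negative and a median of -0.04. Osbpl6, a lipid transfer protein, had 13.3 and 4.82 CPM in the controls and 19.2, 21.2 and 13.6 CPM in the KO libraries (0.92 ± 0.40), with control RT 2 far below control RT 1. Calcium pumps and stores had 8 of 15 positive (median 0.01), and no member's groups were apart. Calreticulin (Calr), a major calcium-binding protein of the ER lumen, read 128 and 154 CPM in the controls and 155, 141 and 192 CPM in the KO libraries (0.21 ± 0.17). In cold Calr passed, at 1.07 ± 0.13.

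Mitochondrial calcium uptake had a median of 0.02 over 12 genes. The mitochondrial calcium exporter Slc8b1 had 6.90 and 4.22 CPM in the controls and 3.55, 2.30 and 2.62 CPM in the KO libraries (-0.99 ± 0.49). That is 15, 7, 7, 4 and 5 counts, in the order of the libraries above, too few for a firm value. Calcineurin and NFAT genes, the usual readers of store-operated calcium, had 10 of 19 positive (median 0.02). Rcan1, a calcineurin inhibitor that NFAT induces, had 32.6 and 28.9 CPM against 26.3, 24.1 and 28.3 CPM (-0.23 ± 0.18). Among phospholipase C, diacylglycerol kinase and protein kinase C genes, 5 of 19 had all KO libraries above the controls (26.3%, background 8.68%). Of these, Dgkg had only 1 and 0 counts in the controls and 2, 1 and 1 in the KO libraries. Prkcb had 7 and 8 counts against 12, 9 and 11. Plcb1 had 21.6 and 24.7 CPM against 30.4, 33.3 and 39.4 CPM (0.57 ± 0.20), and Plce1 differed by 0.42 ± 0.22.

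ER chaperones and the unfolded protein response, the machinery that folds secreted proteins, had 23 of 36 tested members positive at RT. No member reached an unadjusted p under 0.05 in edgeR, and the median was 0.08. In cold 14 of the same 36 passed, all higher in KO tissue (background 2.55%), with a median of 0.63. The difference between both effects reached an unadjusted p under 0.05 for 13 of 36 members (background 8.57%), and it passed after adjustment for 0. Canx, a membrane-bound lectin chaperone, read 218 and 239 CPM in the controls and 259, 219 and 282 CPM in the KO libraries (0.15 ± 0.13). Xbp1, a transcription factor of this response, had 46.0 and 57.3 CPM against 97.3, 87.2 and 49.3 CPM (0.60 ± 0.36), high in KO RT 1 and 2 and at the control level in KO RT 3. Fkbp2, a prolyl isomerase of the ER, differed by 0.41 ± 0.27.

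Thermogenic genes had 13 of 27 positive and a median of -0.01. Ppargc1b, a coactivator of mitochondrial genes, had 216 and 239.9 CPM in the controls and 287, 325 and 290.3 CPM in the KO libraries (0.40 ± 0.17). Gk, a glycerol kinase that lets brown fat reuse glycerol, had 368 and 805 CPM in the controls and 257, 271 and 412 CPM in the KO libraries. Control RT 2 was the highest, KO RT 3 lay above control RT 1, and the difference of -0.90 ± 0.24 became -0.23 without control RT 2. Ppargc1a, the cold-induced coactivator of this program, stood at 128 and 577 CPM in the controls and 104, 153 and 348 CPM in the KO libraries. Its libraries parted by set rather than by genotype, with control RT 2 and KO RT 3 the highest, and its difference of -0.80 ± 0.53 turned to 0.66 without control RT 2.

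Control RT 2 was high in genes of acute stimulation too, but not alone. Immediate early genes had a median of -0.18 over 23 genes. It turned to 0.83 without control RT 2 and was -0.47 without control RT 1. The median log2 CPM of these genes, less the mean of the 5 libraries, was -0.48 and 0.57 in the controls. In the KO libraries it was -0.36, 0.41 and -0.08, so that KO RT 2 was high as well. Nr4a3, a nuclear receptor induced by cAMP, read 6.44 and 133 CPM in the controls and 6.08, 13.2 and 42.0 CPM in the KO libraries. Its difference of -1.71 ± 0.75 turned to 1.66 without control RT 2. Ier3 differed by -0.72 ± 0.28, with -0.12 without that library. Glucocorticoid targets had a median of -0.05, which turned to 0.45 without it.

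Of 22 cytosolic heat shock chaperones 20 were negative (median -0.30). Hsph1, a nucleotide exchange factor of HSP70, had 23.0 and 144 CPM in the controls and 16.7, 25.2 and 69.3 CPM in the KO libraries, again highest in control RT 2 and next in KO RT 3. Its difference of -1.13 ± 0.56 turned to 0.70 without control RT 2, and the median of the list turned to 0.19. Hspa1a, whose reads may be split with its near-identical copy Hspa1b, had 2.76 and 50.6 CPM against 2.03, 2.87 and 12.6 CPM and turned from -2.08 ± 0.92 to 1.07. Cryab, a small heat shock protein abundant in muscle, had 28.5 and 14.5 CPM against 13.2, 13.2 and 3.67 CPM (-1.14 ± 0.47). Control RT 1 was the highest and KO RT 3 the lowest. Over 28 other settings, with the muscle marker level as a term in 1 of them, the Cryab difference ran from -1.95 to -0.54. The lowest value came from libraries 153 and 152 alone and the highest from the fit without control RT 1. The range thus does not show what the muscle term did. The part of muscle transcripts in these values was not tested otherwise. Genes of the integrated stress response had 15 of 24 negative (median -0.19, and 0.08 without control RT 2). Several of the 24 had few or no counts at RT, yet they enter this count and median. Among the negative members, the transcription factor Atf5 had 217 and 236 CPM against 149, 170.4 and 168 CPM (-0.48 ± 0.25).

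Lipogenesis and triglyceride synthesis had 18 of 30 negative, with 5 at an unadjusted p under 0.05 (16.7%, background 1.85%), and the median of -0.12 turned to 0.19 without control RT 1. Gpam, the acyltransferase that starts triglyceride synthesis, had 409 and 516 CPM in the controls and 342, 381 and 375 CPM in the KO libraries (-0.34 ± 0.15), and it passed in cold at -1.08 ± 0.11. Pck1, which makes the glycerol backbone from smaller precursors, read 3102 and 4006 CPM in the controls and 4001, 4554 and 4716 CPM in the KO libraries (0.32 ± 0.14). Lipoprotein lipase (Lpl) had 4667 and 5975 CPM against 6129, 6009 and 6397 CPM (0.22 ± 0.12), with every KO library above both controls by a small margin.

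Lipolysis genes had 13 of 21 positive (median 0.01), among them the carboxylesterase Ces1f with 55.6 and 39.8 CPM against 83.1, 59.1 and 73.0 CPM (0.58 ± 0.26). Of 29 genes of fatty acid oxidation 22 were positive, with a median of 0.06. Ehhadh, a peroxisomal enzyme of this pathway, stood at 25.7 and 36.8 CPM in the controls and 44.1, 52.8 and 103.4 CPM in the KO libraries (1.11 ± 0.42). As with Elovl3, KO RT 3 was the highest.

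In glucose uptake, glycolysis and glycogen 25 of 36 members were negative, with a median of -0.14. Every KO library was below both controls for 9 of 36 (25.0%, background 7.96%), and 4 reached an unadjusted p under 0.05 (11.1%, background 1.85%). Pfkl, the liver-type phosphofructokinase, had 179 and 200.1 CPM in the controls and 125, 134 and 129 CPM in the KO libraries (-0.55 ± 0.18), and it passed in cold at -1.01 ± 0.14. Hk1, a hexokinase that traps glucose in the cell, read 26.2 and 24.7 CPM in the controls and 10.1, 13.8 and 21.0 CPM in the KO libraries (-0.77 ± 0.29). Pkm, the pyruvate kinase, had 393 and 333 CPM against 274, 259 and 289.7 CPM (-0.41 ± 0.17), and the lactate transporter Slc16a1 had 276 and 254 CPM against 149, 254 and 155 CPM (-0.51 ± 0.21). Muscle also expresses glycolytic genes, and its markers were highest in control RT 1. Without that library the median was -0.02, and it was -0.27 without control RT 2. In libraries 153 and 152 alone, where muscle markers were low, it was 0.04, and with the muscle marker level as a term of the fit it was -0.15. Leaving out either library also takes away 1 of 2 controls, and the cause of these shifts was not tested.

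The TCA cycle list had a median of 0.01 over 27 genes, Sdhb being its highest member and Got1, a transaminase (-0.65 ± 0.29), among its lowest. Of 50 nuclear-encoded respiratory chain subunits 32 were positive, with a median of 0.02. In 6 of them every KO library was above both controls (12%, background 8.68%). Ndufa2, a subunit of complex I, had 469.9 and 542 CPM in the controls and 617, 651 and 708 CPM in the KO libraries (0.38 ± 0.17), and Ndufa4 differed by 0.31 ± 0.16. Genes of the mitochondrial genome had a median of 0.01.

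Breakdown of branched-chain amino acids and the creatine cycle, both fuel-consuming routes of brown fat, had 18 of 24 members positive (median 0.14). Every KO library was above both controls for 8 of 24 (33.3%, background 8.68%). Beside Bcat2 these included Slc25a44, the mitochondrial importer of these amino acids, with 116 and 117 CPM in the controls and 151, 147 and 133 CPM in the KO libraries (0.30 ± 0.14). Dbt, a subunit of the dehydrogenase that follows Bcat2, had 288 and 286 CPM against 336, 313 and 372 CPM (0.25 ± 0.12). Of the creatine genes, the importer Slc6a8 lay the other way, with 17.5 and 16.3 CPM against 13.7, 10.9 and 7.87 CPM (-0.64 ± 0.29). The median was positive in both sets (0.06 in libraries 175, 176 and 178 and 0.17 in libraries 153 and 152), and 12 of 24 members were positive in both (50.0%, against 22.6% of all genes). For the 8 members with every KO library above both controls, that sign was fixed in advance.

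Mature adipocyte genes had 16 of 27 positive (median 0.04). Car3, an abundant carbonic anhydrase of adipocytes, had 3820.1 and 3904 CPM in the controls and 5216, 4179.6 and 4544 CPM in the KO libraries (0.27 ± 0.12). Ebf1, a transcription factor of adipocyte identity, had 326 and 363 CPM against 283, 269 and 249.8 CPM (-0.36 ± 0.14) and passed in cold at -1.28 ± 0.12. In insulin signalling the receptor gene Insr had 57.5 and 72.9 CPM against 84.6, 98.7 and 93.4 CPM (0.51 ± 0.19), and Igf1r differed by 0.40 ± 0.22. The pseudokinase Trib1 differed by 0.74 ± 0.26, with KO RT 2 far above the others and 0.30 without it.

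Interferon-stimulated genes, which cells switch on in response to interferons, had the lowest median of the pathway lists (-0.48). Of 21 tested members 19 were negative. Every KO library was below both controls for 12 of 21 (57.1%, background 7.96%), and 8 reached an unadjusted p under 0.05 (38.1%, background 1.85%). No member passed. The summed level of the list overlapped between genotypes, at 2128 and 1944 CPM in the controls and 2054, 1973 and 1986 CPM in the KO libraries. Most of it came from Ifi27, named after its values were seen, with 1561 and 1343 CPM in the controls and 1579, 1479 and 1612 CPM in the KO libraries (0.10 ± 0.17). Promoters of such genes often hold an interferon-stimulated response element. Of the 18 tested members with a promoter in the RefSeq table (250 bases before to 50 after a start, build GRCm38.p6), 11 held GAAA, any 2 bases and GAAA again, on either strand (61.1%, against 3.56% of 8392 tested genes with a promoter). The stretches of the 4 members with the smallest p are shown as examples of the motif, each 5′ to 3′ on its gene's strand with the matches in capitals; each holds 2 matches, which overlap in Gbp3 and Bst2.
Ifit3b, chr19:34607749-34607832, plus strand: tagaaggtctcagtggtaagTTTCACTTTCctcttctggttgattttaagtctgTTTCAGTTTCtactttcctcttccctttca
Gbp3, chr3:142559979-142560034, plus strand: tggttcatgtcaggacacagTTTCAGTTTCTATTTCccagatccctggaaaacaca
Ifit1, chr19:34640765-34640833, plus strand: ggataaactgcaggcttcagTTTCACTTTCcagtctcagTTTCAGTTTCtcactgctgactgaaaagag
Bst2, chr8:71537567-71537622, minus strand: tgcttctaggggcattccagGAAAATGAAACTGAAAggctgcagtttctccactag

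Ifit3b, of the IFIT family of RNA-binding proteins, stood at 6.90 and 7.23 CPM in the controls and 2.53, 2.30 and 2.10 CPM in the KO libraries (-1.58 ± 0.49). It shares much of its sequence with Ifit3, so that counts of either are uncertain. Gbp3, a GTPase, had 30.3 and 28.9 CPM in the controls and 11.1, 22.4 and 17.3 CPM in the KO libraries (-0.82 ± 0.25). In both genes the controls were alike and all KO libraries lower. Ifit1, whose product binds viral RNA, had 10.6 and 16.9 CPM against 9.12, 7.46 and 2.10 CPM (-1.10 ± 0.45). Bst2, which tethers virus particles to the membrane, had 19.3 and 35.0 CPM against 17.7, 18.9 and 11.5 CPM (-0.73 ± 0.32), and without control RT 2 the difference was -0.26.

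The list as a whole kept a negative median without control RT 1 (-0.62), without control RT 2 (-0.44) and in each set of libraries (-0.29 in 175, 176 and 178, and -0.77 in 153 and 152), and 15 of 21 members were negative in both sets (71.4%, against 22.4% of all genes). For the 12 members with every KO library below both controls, a negative sign in both sets was fixed in advance. Members with the motif had a median of -0.69 over 11 genes and those without it -0.62 over 7. Among all 299 tested genes with the motif the median was -0.03. Leukocyte markers differed between libraries as well. Macrophage markers, 21 of 21 detected, summed to 280 and 434 CPM in the controls and 319, 224 and 265 CPM in the KO libraries, so that the groups overlapped. Antigen presentation markers, 13 of 13 detected, summed to 168 and 391 CPM in the controls and 190, 200 and 199 CPM in the KO libraries. Of the lymphocyte list 21 of 24 were detected, and Cd79a and Cd8b1 were among those at 0. The part of these cells in the values of the interferon-stimulated genes was not tested. In cold the median of the list was -0.04.

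Of 18 tested macrophage and monocyte markers 16 were negative (median -0.30, and -0.04 without control RT 2). Ccr2, a chemokine receptor of monocytes, had 19.8 and 45.2 CPM in the controls and 18.7, 18.9 and 16.8 CPM in the KO libraries (-0.80 ± 0.30), and -0.12 without control RT 2. The lysosomal protein Laptm5 of leukocytes likewise went from -0.84 ± 0.31 to -0.11. Cx3cr1, the fractalkine receptor, had 12.4 and 8.44 CPM against 6.08, 4.59 and 5.25 CPM (-0.98 ± 0.41), low in all KO libraries, with -1.20 without control RT 2. Fibroblast and matrix genes had 17 of 27 positive (median 0.08). Lox, which crosslinks collagen, had 28.5 and 29.5 CPM against 19.8, 16.1 and 18.4 CPM (-0.68 ± 0.27), and it passed in cold at -1.51 ± 0.19. Erythrocyte markers summed to 1149 and 2622 CPM in the controls and 1953 to 3299 CPM in the KO libraries.

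**Figure D4:**
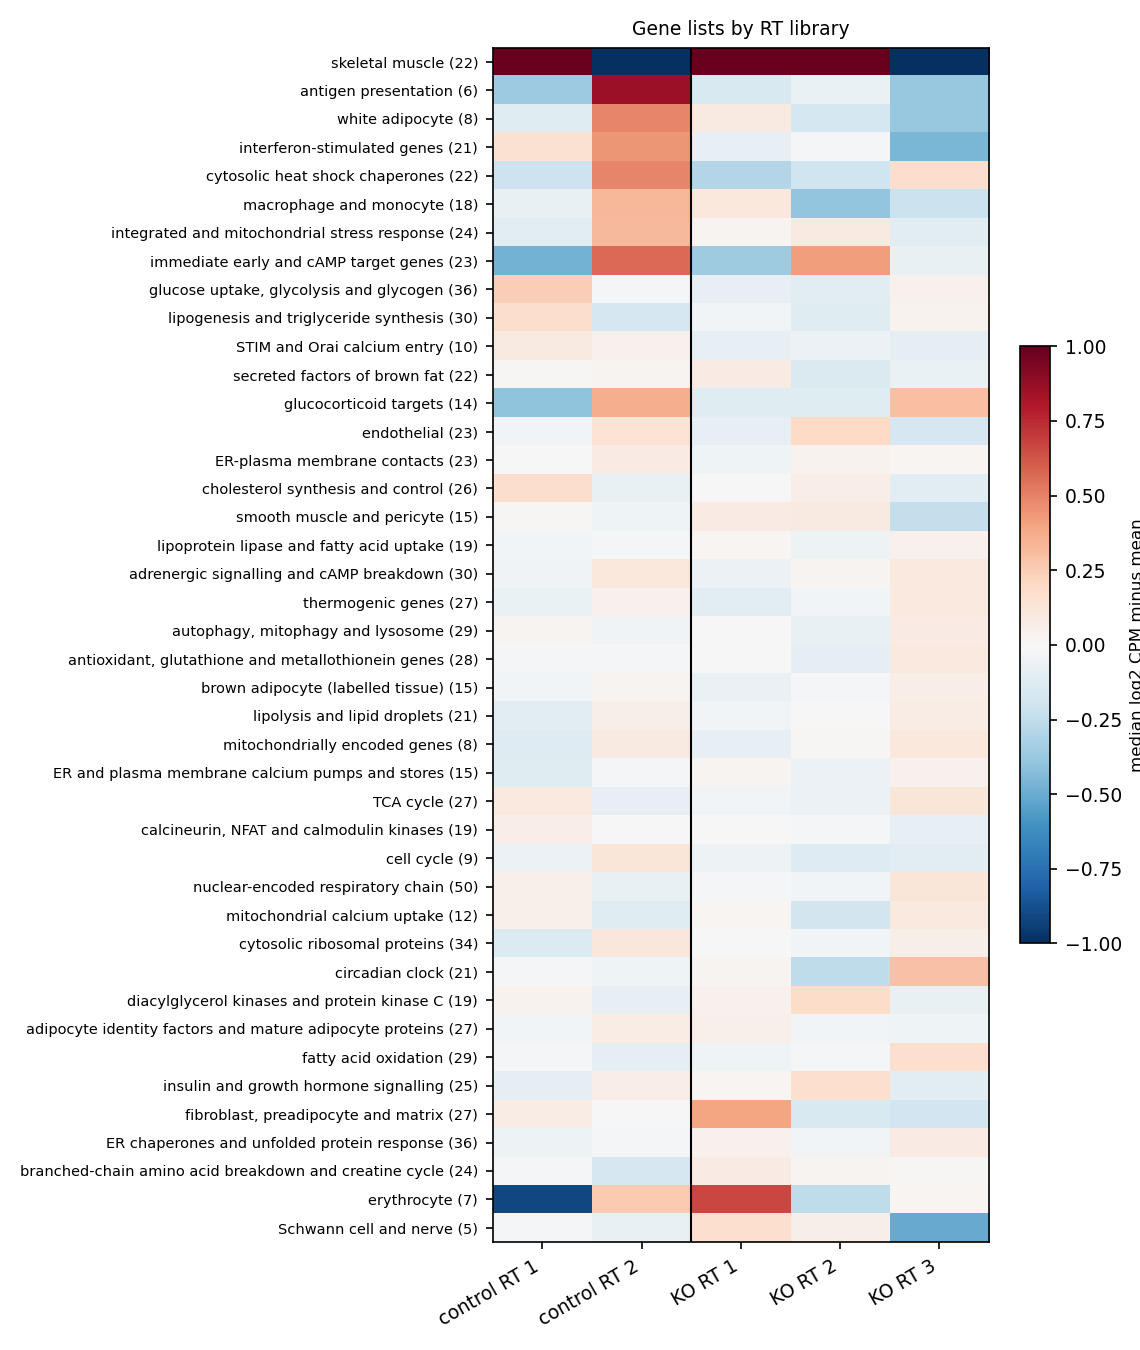
For each of the 42 lists with at least 5 tested members (number in brackets), the median over members of log2 CPM minus the mean of the 5 RT libraries, capped at 1 in either direction; lists are ordered by their median difference between KO and control. The skeletal muscle row follows the library numbers, and the interferon-stimulated row is positive in both controls (0.15 and 0.44) and negative in the 3 KO libraries (-0.08, -0.02 and -0.46).

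The RT values can be set beside the genes that passed after 6 h of cold, since the comparisons share no library, although they share a fit and its spread. Of the 684 genes called in cold, 481 (70.3%) had the same sign at RT, against 54.1% of all 11073 genes. Their size at RT was small: the 282 genes higher in cold-exposed KO tissue (2.55%) had a median of 0.12 at RT and 0.89 in cold, and the 402 lower genes (3.63%) had -0.12 and -0.78. At RT 55 of the 684 (8.04%) reached an unadjusted p under 0.05 with the same sign and 4 with the opposite sign. Those 55 are 14.6% of the 377 genes at that level. In libraries 175, 176 and 178 the same sign as in cold was seen for 57.7% of the 684 genes (51.2% of all genes), and in libraries 153 and 152 for 68.9% (53.8% of all genes).

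The next genes are the 10 with the largest fold change in cold and at least 5 CPM at RT. Of these, Lgr6, Aldh3b2 and Gm15411 had groups that did not overlap at RT. Groups were apart at RT for 16.6% of all 11073 genes. Among the 684 genes called in cold they were apart for 140 with the same sign and 29 with the opposite sign. Aldh3b2, an aldehyde dehydrogenase of lipid-derived aldehydes, had 5.52 and 13.9 CPM in the controls and 23.3, 14.3 and 21.0 CPM in the KO libraries (1.08 ± 0.33, against 2.24 in cold). KO RT 2 was barely above control RT 2, and without control RT 1 the difference was 0.50. The tight junction gene Cldn1 had 14.7 and 26.5 CPM in the controls and 8.10, 28.1 and 8.40 CPM in the KO libraries, with KO RT 2 the highest library, and differed by -0.47 ± 0.51 at RT and -2.69 in cold. Npr3, which clears natriuretic peptides from the blood, differed by -0.56 ± 0.44 at RT and -2.55 in cold, and the zinc importer Slc39a14 by -0.41 ± 0.34 and -2.38. For both, the RT value turned sign without control RT 2 (0.08 and 0.03).

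Creld2, an ER chaperone gene, had 10.1 and 10.8 CPM in the controls and 10.6, 10.9 and 8.40 CPM in the KO libraries, a difference of -0.07 ± 0.42 at RT against 2.23 in cold. AW011738 differed by 0.06 ± 0.46 at RT and -2.22 in cold. The unnamed transcript Gm15411 had 3.68 and 5.42 CPM against 9.12, 7.46 and 7.87 CPM (0.87 ± 0.48, and 2.63 in cold), and Nxnl1 had 7.82 and 6.03 CPM against 9.62, 9.75 and 7.35 CPM (0.34 ± 0.47, and 2.55 in cold). The mitochondrial tRNA gene mt-Tc had 2.30 and 12.7 CPM in the controls and 6.08, 2.87 and 4.72 CPM in the KO libraries, too scattered for a sign (-0.58 ± 0.85, and 0.99 without control RT 2).

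The difference between the RT and the cold effect was tested in the same fit, and it passed for 2 of 11073 genes (0.0181%), with 949 (8.57%) at an unadjusted p under 0.05. Hspa4l, a cytosolic chaperone of the HSP110 family, had 108 and 118 CPM in the RT controls and 99.3, 83.8 and 104 CPM in the RT KO libraries (-0.23 ± 0.21). In cold the means were 467 ± 89.8 CPM (SD, n = 4) in control and 103.1 ± 24.2 CPM in KO tissue, a difference of -2.18 ± 0.16. The control mean in cold lay above both RT controls and the KO mean within the range of the RT KO libraries. The RT effect exceeded the cold effect by 1.94 ± 0.27 (adjusted p = 0.0188). Pcsk6, a convertase that activates secreted precursors, had 47.8 and 55.4 CPM in the RT controls and 46.1, 41.3 and 46.2 CPM in the RT KO libraries (-0.21 ± 0.20). Its cold means were 177 ± 38.7 CPM in control and 48.7 ± 1.99 CPM in KO tissue, and the effects differed by 1.65 ± 0.25 (adjusted p = 0.0269). With a library left out, the adjusted p of the difference ran from 0.00658 to 0.105 for Hspa4l. It missed the threshold without control RT 1 (0.105), control RT 2 (0.0678), KO RT 3 (0.0873), KO cold 1 (0.0737) or KO cold 2 (0.0506). For Pcsk6 it ran from 0.00975 to 0.154 and missed the threshold without control RT 1 (0.154), control RT 2 (0.0678), KO RT 1 (0.0905), KO RT 2 (0.0679), KO RT 3 (0.0873), KO cold 1 (0.0899), KO cold 2 (0.0838), KO cold 3 (0.1001) or KO cold 4 (0.0607). With the replicate number as a block the adjusted p was 0.0770 for both genes. With libraries 175, 176 and 178 alone at RT it was 0.117 for Hspa4l and 0.128 for Pcsk6, and with libraries 153 and 152 alone 0.378 and 0.444, so neither passed in these fits.

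The next genes by this test did not pass. Lama4, a laminin of basement membranes, had 90.1 and 74.7 CPM in the RT controls and 81.5, 68.9 and 67.2 CPM in the RT KO libraries, with a difference of effects of -1.54 ± 0.26 (adjusted p = 0.0771). Hk2, the insulin-responsive hexokinase, had 511 and 477 CPM against 434, 465 and 439 CPM at RT (-0.15 ± 0.12) and -1.01 in cold. Marcks, a substrate of protein kinase C at the plasma membrane, had 295 and 286 CPM against 245, 246 and 216 CPM (-0.30 ± 0.13) and the opposite sign in cold (0.60). Fam117a had 109 and 134 CPM against 95.7, 123 and 143 CPM at RT, where the groups overlapped, and passed in cold at -1.91 ± 0.23. Likewise Arhgap24, a regulator of small GTPases (-0.02 at RT), and Sacm1l, a phosphoinositide phosphatase of the ER (-0.04), passed in cold at -1.47 and -1.29. For Ebf1, described above, the effects differed by 0.92 ± 0.19 (adjusted p = 0.15). Slc39a14, the tenth by this test, had a difference of effects of 1.96 ± 0.40 (adjusted p = 0.15).

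**Figure D5:**
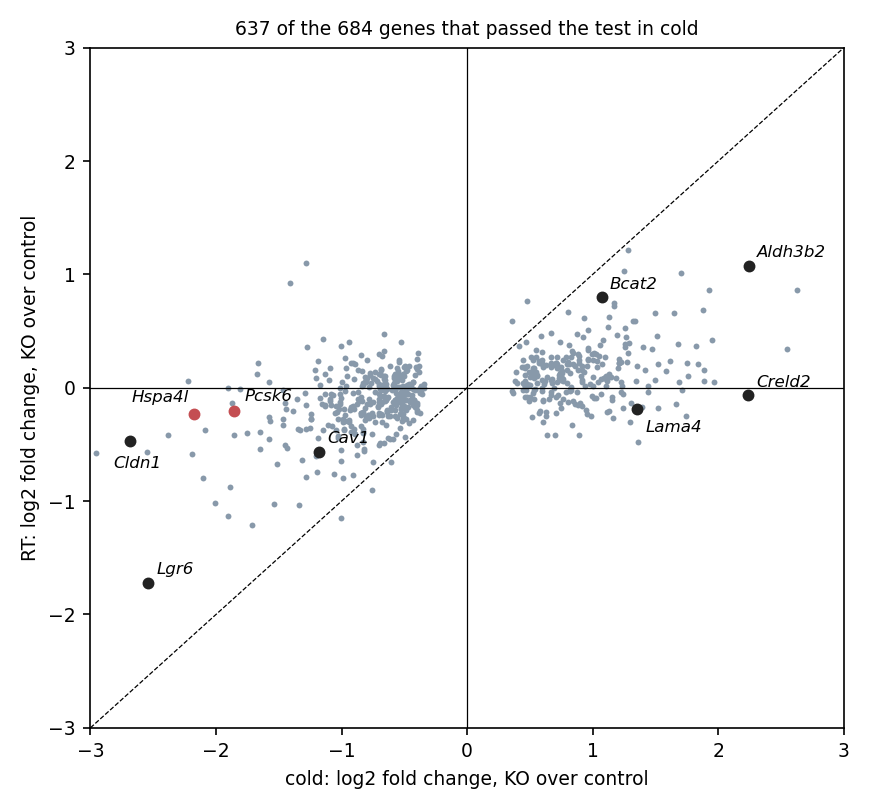
Log2 fold change of KO over control in cold (x axis) and at RT (y axis) for the 637 of 684 genes called in cold with a mean of at least 5 CPM at RT; the dashed line marks equal effects and red marks Hspa4l and Pcsk6. Most points lie close to 0 on the RT axis, while Bcat2 lies near the dashed line and Lgr6 is low on both axes (-1.72 at RT and -2.54 in cold).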

How the data were processed

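QuantSeq libraries of total RNA, which read a tag at the 3′ end of polyadenylated transcripts, were counted per gene. Values are whole-number counts for each Ensembl gene as the authors deposited them, of annotation release 103 per the table's name. Trimming with Trim Galore 0.6.7, handling of molecular identifiers with UMI-tools 1.1.2, alignment with STAR 2.7.10b to GRCm39 and counting with HTSeq 0.12.3 are inferred from what these tools do: the submitters' processing notes name them without role, order or settings, along with limma and edgeR. Whether reads were collapsed by molecular identifier or counted by strand is not given in the sources used here, so an overlapping or antisense gene cannot be told apart. Of 55632 lines, 275 repeated lines were removed (0 had other counts). No row without a gene identifier entered the library sizes.

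In R 4.3.3, edgeR 4.0.16 kept genes passing filterByExpr (minimum count 10), 11073 in all, scaled libraries by the trimmed mean of M values and fitted 1 quasi-likelihood model with a coefficient for each of the 4 groups to all 13 libraries, so that the groups share 1 estimate of spread. Tests were two-sided; adjusted p is the Benjamini-Hochberg value over all tested genes. CPM use the scaled library sizes. Alternatives included DESeq2 1.42.0 and limma 3.58.1 voom. The procedure was first tested on simulated counts. Replicate pairs differed by more than sampling noise (2.59 to 6.66 times, as chi-square over its degrees of freedom). Arms of 1 library, in the reduced fits, are assumed to vary like the other groups.

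Lists, members and the rule for named genes were chosen with earlier results of these data known, so none is independent evidence. By that rule the text names Stim1, Stim2 and Ucp1, genes called, the 12 smallest unadjusted p in each direction (groups apart, 5 or more CPM on average, no provisional symbol), up to 4 members of a list, the 10 largest changes in cold and the 10 smallest adjusted p of the difference between effects. Orai1, Saraf, Dgkg, Prkcb, Ifi27, Sdha, Sdhc, Sdhd and genes called only under an alternative were named outside it, after their values were seen. Reading the 2 sets of library numbers apart was decided after the data were seen. Promoter sequences are from RefSeq tables of another build than the counts and carry no measured value.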

Additional observations from a re-analysis of the deposited data

Results flagged for a closer look

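Hspa4l and Pcsk6 were the 2 genes whose KO effect differed between RT and cold by the test of the difference itself, by 1.94 and 1.65 on the log2 scale, with the values given above. Neither passed with the replicate number as a block (adjusted p = 0.0770 in edgeR for both) or with either set of library numbers alone at RT. In cold the Fam117a level of control cold 4, at 632 CPM, stood far from the other libraries of its group, and so did that of KO cold 2, at 116 CPM. Such a gap arises by chance in about 1 in 20 groups of this size, and the RT groups of 2 and 3 libraries are too small for this check.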

How the results depend on the processing

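With 2 controls, the RT comparison depends on each of them, and 1 library a genotype is all that the smaller set of library numbers holds. The 28 other settings comprised 13 that left out 1 library and 15 others, among them 3 chosen after seeing the data (each set of library numbers alone, and muscle markers as a term). The count of genes called at RT, 0 as reported, was 3 in DESeq2, 10 without a filter on low counts, 1 with the library number as a term (Sdhb, adjusted p = 0.0462), and 0 to 8 with a library left out. The count at an unadjusted p under 0.05, 377 as reported, was 206 in DESeq2, 748 without the filter, 250 with a minimum count of 30, 613 in libraries 153 and 152 alone, and 315 to 852 with a library left out, with 142 to 370 higher and 167 to 482 lower. The count of genes whose effect differed between RT and cold, 2 as reported, was 29 in DESeq2, 1 in limma-voom (adjusted p of Pcsk6 0.0550), 44 without the filter, 0 in libraries 153 and 152 alone and 0 to 4 with a library left out. The count of genes called in cold, 684 as reported, ran from 418 to 737. Stim1 at RT was -0.91 in DESeq2 and -0.89 without the filter, past the threshold in both. The cause of these changes was not tested.

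The labels do not say that a replicate number marks a shared origin, and only some same-numbered replicates deviated together: the correlations of their residuals were 0.333 for number 1 and -0.013 for number 2 at RT, and between -0.163 and 0.138 in cold. With the replicate number as a block over all libraries, 0 genes were called at RT (338 at an unadjusted p under 0.05), 604 in cold and 0 for the difference, where the adjusted p of Hspa4l and of Pcsk6 was 0.0770. With the block over RT libraries alone it was 0 (425).

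Of 98 genes followed through the settings, 77 had no setting with the opposite sign. That count follows in part from how genes were picked. Groups that do not overlap keep their sign when an RT library is left out or a set is read alone. With a library left out, the RT difference crossed 0 for Ucp1 (-0.28 to 0.011), mt-Tc (-1.45 to 0.99), Npr3 (-1.05 to 0.078), Slc39a14 (-0.82 to 0.031), Creld2 (-0.14 to 0.036), AW011738 (-0.017 to 0.16), Arhgap24 (-0.24 to 0.26), Fam117a (-0.16 to 0.16), Sacm1l (-0.11 to 0.014), Hspa1a (-3.34 to 1.07), Hsph1 (-1.97 to 0.70), Ppargc1a (-1.52 to 0.66), Nr4a3 (-2.83 to 1.66), Orai1 (-0.36 to 0.36), Saraf (-0.081 to 0.021), Sdha (-0.079 to 0.14), Sdhc (-0.13 to 0.0029) and Sdhd (-0.17 to 0.40). In libraries 175, 176 and 178 alone it was opposite for mt-Tc (0.96), Cldn1 (0.27), Slc39a14 (0.065), Creld2 (0.088), Fam117a (0.011), Nr4a3 (0.55), Saraf (0.035), Ifi27 (-0.031), Sdha (-0.10) and Sdhd (-0.32). In libraries 153 and 152 alone it was opposite for AW011738 (-0.20), Arhgap24 (0.032), Fam117a (0.094), Sacm1l (0.12), Xbp1 (-0.21) and Sdhc (0.10). With the replicate block it was opposite over all libraries for AW011738 (-0.0063) and Arhgap24 (0.034), and over RT libraries for Creld2 (0.041), Arhgap24 (0.10), Orai1 (0.19) and Sdhd (-0.028). For Fam117a it was 0.046 with the library number as a term and 0.00028 without the filter.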

Other observations

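Lists of other functions lay around 0 at RT. Adrenergic signalling, the input that turns on thermogenesis, had 13 of 30 members positive (median -0.02). Cholesterol synthesis had 17 of 26 negative, with a median of -0.04 that was 0.08 without control RT 1 and -0.23 without control RT 2. The circadian clock had 11 of 21 positive (median 0.03), and cytosolic ribosomal proteins had 22 of 34 (median 0.03). Factors that brown fat secretes had 12 of 22 negative (median -0.08), and in 4 of them every KO library was below both controls (18.2%, background 7.96%).

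White adipocyte markers had 7 of 8 tested members negative (median -0.48). Their sum over 15 genes was 223 and 448 CPM in the controls and 279, 247 and 186 CPM in the KO libraries, and the median was 0.02 without control RT 2. Cyp2e1, a cytochrome P450 that adipocytes and liver express, passed only without the filter on low counts and, having been noticed there, is named after its values were seen. It had 89.2 and 132 CPM in the controls and 366, 199 and 170.1 CPM in the KO libraries (1.15 ± 0.35), with KO RT 1 the highest. Gmpr, a reductase of guanine nucleotides noticed in the same way, had 85.5 and 207 CPM in the controls and 41.0, 98.7 and 49.3 CPM in the KO libraries (-1.21 ± 0.36), where KO RT 2 lay above control RT 1.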
